A study of Mus musculus with 6 samples.

Results

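The 7 genes for subunits of the NMDA receptor, Grin1, Grin2a, Grin2b, Grin2c, Grin2d, Grin3a and Grin3b, were followed in RNA-seq of mouse dorsal hippocampus after knockdown of the lncRNA Snhg11. They were chosen by name from the 55401 genes in the count files. WT mice aged 4 months, littermates of the trisomic Ts65Dn line, were injected in both hemispheres with 50 μg of an antisense oligonucleotide (ASO) aimed at the dorsal dentate gyrus (DG), and the tissue was taken 3 days later. In the Snhg11-ASO group (3 samples, labelled Snhg11 KD) the ASO was directed at exon 5 of Snhg11, and in the Control-ASO group (3 samples, labelled WT) it was a gapmer of equal length with a scrambled sequence. The injection was local to the DG, whereas the RNA came from the dorsal hippocampus as a whole, and fewer cells of a type and less RNA per cell cannot be told apart in these values.

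The NMDA receptor is a glutamate-gated channel that passes calcium. It opens only when glutamate and a co-agonist, glycine or D-serine, are bound while the membrane is depolarized, and calcium entry through it starts most forms of long-term potentiation. GluN1, encoded by Grin1, binds the co-agonist and is part of every receptor. GluN2A to GluN2D, encoded by Grin2a to Grin2d, bind glutamate and set how long the channel stays open, and GluN3A and GluN3B, encoded by Grin3a and Grin3b, bind glycine and lower the calcium flow. Principal neurons of the adult hippocampus carry mostly GluN2A and GluN2B.

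Counts on genes totalled 28951250 to 34293344 read pairs per Control-ASO sample and 38556524 to 43997537 per Snhg11-ASO sample. Snhg11 was at 551, 436 and 209 CPM (counts scaled to library size) in the controls, in the order of replicates 1, 2 and 3 that is kept throughout, and reached 139, 65.4 and 69.4 CPM after Snhg11-ASO. Every Snhg11-ASO sample was below every control, with a log2 fold change of -2.13 (standard error, SE, 0.43) and an adjusted p of 0.395 from edgeR's quasi-likelihood test or 6.2e-05 from DESeq2. Snhg11-ASO replicate 1 stood apart from the other libraries: of the 19969 genes tested, 727 lay there more than 2-fold below all other samples and 802 more than 2-fold above them, against at most 149 and 56 in any other library. By the methods, an outlying Snhg11-ASO sample was removed before the differential expression analysis, and it is not named there. All 6 samples were kept here. Fold changes of the 6 tested subunit genes are also given without Snhg11-ASO replicate 1, and those of other genes rest on all 6 samples unless stated otherwise. Of the cell type markers, that library was the lowest or next to lowest for 10 of 10 of microglia, 9 of 12 of the oligodendrocyte lineage, 8 of 10 of astrocytes, 8 of 10 of neurons in general and 7 of 12 of interneurons. It was so for 5 of 10 of granule cells, 4 of 12 of pyramidal cells and 4 of 10 of endothelium. Control-ASO replicate 1 was as low for 8 of 10 of microglia, 9 of 12 of the oligodendrocyte lineage and 6 of 10 of astrocytes. Snhg11-ASO replicate 2 was as low for 9 of 12 of interneurons. The summed level of 10 choroid plexus markers ran from 41.5 to 1987 CPM among Control-ASO and from 75.4 to 1355 CPM among Snhg11-ASO samples.

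Of the 7 subunit genes, 6 had enough counts to be tested, and the difference between Snhg11-ASO and Control-ASO passed the test for none. The 6 fitted log2 fold changes were all below 0, with a median of -0.32, beside a median of 0.0097 over all genes tested. Leaving out 1 sample at a time brought the median of the 6 to between -0.18 (without Control-ASO replicate 2, with 4 of 6 below 0) and -0.44 (without Control-ASO replicate 3). By edgeR 0 of the 6 were called at an adjusted p under 0.05 (background 0%), and 0 had an unadjusted p under 0.05, where the background was 4.43% of all genes lower and 3.68% higher. The groups overlapped for each of the 6 genes, while they did not overlap for 7.70% of all genes lower and 7.73% higher. DESeq2 called 0 of the 6, beside 0.885% of all genes lower and 0.551% higher.

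The labels do not state that same-numbered samples are paired, and their deviations from the group means correlated weakly (0.297, 0.179 and 0.103). Between same-numbered samples, the CPM of Grin2a, Grin2b and Grin2d was lower in Snhg11-ASO in 3 of 3 pairs. That of Grin1, Grin2c, Grin3a and Grin3b was lower in 2 of 3. With the replicate number as a block, edgeR again called 0 of the 6 genes.

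**Figure D1:**
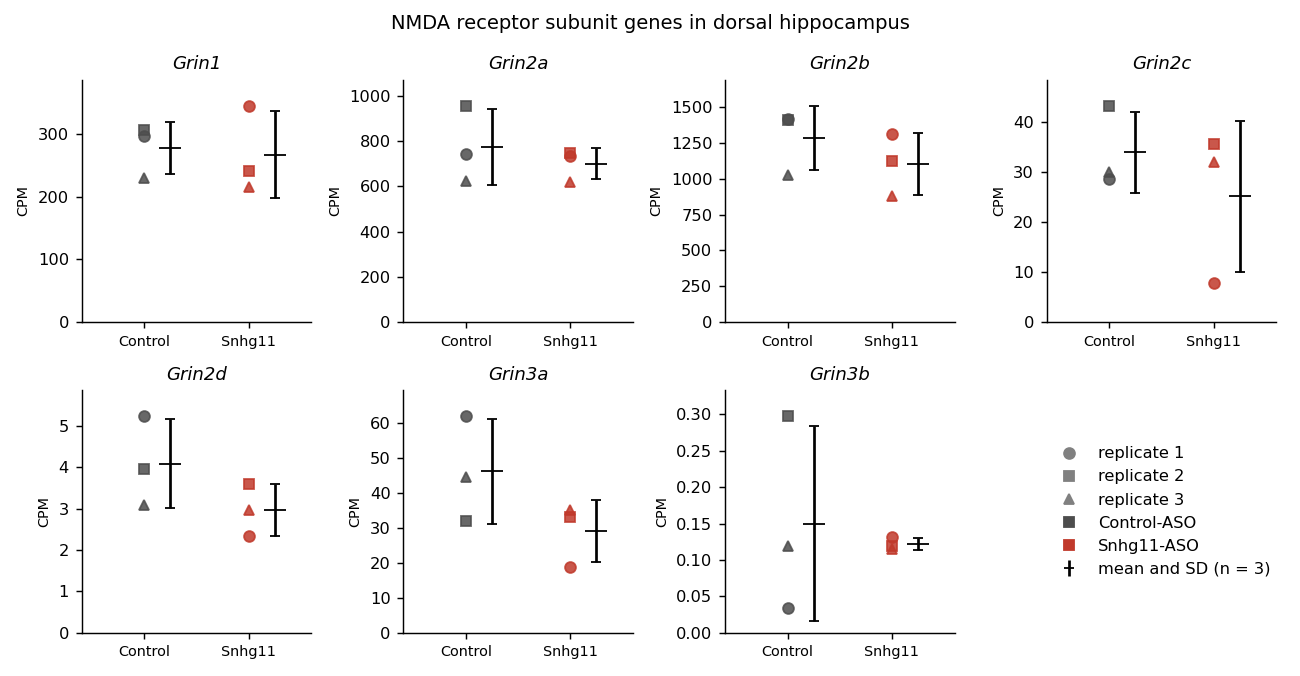
Level of each subunit gene in CPM (linear axes from 0) in every sample of Control-ASO and Snhg11-ASO, with symbols for the replicates and bars for the mean and SD of 3 samples. The groups overlap in every panel, and Grin2c of Snhg11-ASO replicate 1 lies apart at 7.82 CPM.

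Levels can be compared between genes only per length, so CPM was divided by the length in kb of the merged exons of each gene. On this scale Grin2b was the most abundant in Control-ASO samples at 51.7 ± 9.02 CPM per kb (SD, n = 3), followed by Grin2a at 43.2 ± 9.35 and Grin1 at 28.6 ± 4.32 CPM per kb. Far below them were Grin2c at 6.75 ± 1.61, Grin3a at 3.76 ± 1.22, Grin2d at 0.615 ± 0.162 and Grin3b at 0.0455 ± 0.0408 CPM per kb. Of the neighbours in this order, Grin2b (41.3 to 57.0) and Grin2a (34.9 to 53.3) overlapped in their ranges over Control-ASO samples and the other pairs did not. The order of the means was the same in Snhg11-ASO samples, at 44.5 ± 8.70, 39.0 ± 3.90, 27.6 ± 7.08, 4.99 ± 3.00, 2.37 ± 0.727, 0.446 ± 0.0943 and 0.0369 ± 0.00258 CPM per kb. There the ranges of Grin2a and Grin1, and of Grin2c and Grin3a, overlapped as well.

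The place of Grin1 in this order depended on the length used. Its merged exons cover 9700 bases over 14 annotated transcripts, and its longest coding transcript 4276. Divided by the longest coding transcript, Grin1 led in both groups, at 65.0 ± 9.80 CPM per kb in Control-ASO and 62.6 ± 16.1 CPM per kb in Snhg11-ASO samples (SD, n = 3). Grin2b and Grin2a then lay at 53.4 ± 9.31 and 52.9 ± 11.5 CPM per kb in Control-ASO samples, and the ranges of all 3 genes overlapped each other. The steps from these 3 genes down to Grin2c, from Grin3a to Grin2d and from Grin2d to Grin3b were free of overlap in both groups with either length.

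**Figure D2:**
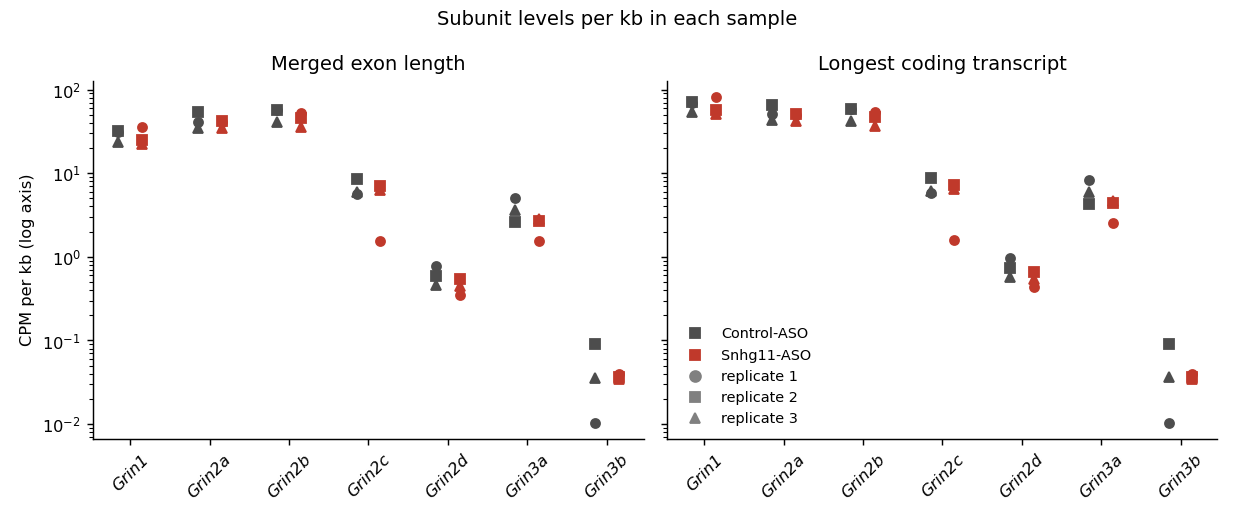
Level of each subunit gene in CPM per kb (log axis) in every sample, with the length from merged exons (left) or the longest coding transcript (right). Gray is Control-ASO, red is Snhg11-ASO and symbols mark replicates, and with merged exons Grin1, Grin2a and Grin2b lie at 22.2 or more while Grin2d stays at or below 0.786 and Grin3b at or below 0.0902.

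Grin1 (ENSMUSG00000026959), the gene for the obligatory subunit, lies on the minus strand of chromosome 2 of GRCm38, from 25291181 to 25319187. It stood at 298, 306 and 230 CPM in the controls and at 345, 241.3 and 216 CPM after Snhg11-ASO. Snhg11-ASO replicate 1 was the highest of the 6 and replicate 3 the lowest, so that the Snhg11-ASO group enclosed the controls. The log2 fold change was -0.055 (SE 0.20, 95% interval -0.53 to 0.42, adjusted p = 0.957 from edgeR), and -0.28 without Snhg11-ASO replicate 1. The gene Grin1os runs antisense to Grin1 and shares 1307 bases of its exons. Counts that ignore strand, in which a pair lying on both genes is left out, held 53.7% to 56.3% of the stranded Grin1 counts used here, and Grin1os had 1 to 4 counts per sample on its own strand.

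Grin2a (ENSMUSG00000059003; chromosome 16, 9567898 to 9995560, minus strand) encodes the GluN2 subunit that becomes prominent as forebrain synapses mature. Its level was 741, 956 and 625 CPM in the controls and 733, 747 and 620 CPM after Snhg11-ASO. Of the 3 Snhg11-ASO values 2 lay within the range of the controls, and Control-ASO replicate 2 was the highest of all samples. The mean was 774 ± 168 against 700.1 ± 70.0 CPM (SD, n = 3), with a log2 fold change of -0.14 (SE 0.17, 95% interval -0.55 to 0.26, adjusted p = 0.845 from edgeR). Without Control-ASO replicate 2 the sign turned, at 0.035, and without Snhg11-ASO replicate 1 the value was -0.18.

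Grin2b (ENSMUSG00000030209; chromosome 6, 135713233 to 136173511, minus strand) encodes the GluN2 subunit that prevails early in development and binds CaMKII tightly. It was at 1417, 1411 and 1026 CPM in the controls and at 1311, 1125 and 880.3 CPM after Snhg11-ASO. Replicate 3 was the lowest sample of either group, and 2 of the 3 Snhg11-ASO samples lay within the controls' range. The mean was 1285 ± 224 against 1105 ± 216 CPM (SD, n = 3), with a log2 fold change of -0.22 (SE 0.19, 95% interval -0.67 to 0.24, adjusted p = 0.790 from edgeR). It ran from -0.077 without Snhg11-ASO replicate 3 to -0.36 without Control-ASO replicate 3 or Snhg11-ASO replicate 1, and was -0.14 without Control-ASO replicate 2.

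Grin2c (ENSMUSG00000020734; chromosome 11, 115249169 to 115267243, minus strand) is best known from cerebellar granule cells and, in the forebrain, from astrocytes. Its level was 28.7, 43.3 and 30.0 CPM in the controls and 7.82, 35.6 and 32.1 CPM after Snhg11-ASO. A single library set the difference: Snhg11-ASO replicate 1, with 298 counts against 843 to 1487 in the others, lay below all other samples, while the other Snhg11-ASO samples lay within the range of the controls. The log2 fold change was -0.43 with all samples (SE 0.51, 95% interval -1.63 to 0.76, adjusted p = 0.842 from edgeR) and -0.0069 without that library, and it was -0.22 without Control-ASO replicate 2 and -0.77 without Snhg11-ASO replicate 2. The summed level of 10 astrocyte markers, which were low in that library together with those of other cell types as given above, was 4720, 6930 and 6132 CPM in the controls and 4256, 6936 and 6942 CPM after Snhg11-ASO. The part of astrocyte RNA in the Grin2c values was not tested.

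Grin2d (ENSMUSG00000002771; chromosome 7, 45831883 to 45878378, minus strand) encodes a GluN2 subunit with slow closing that is found in hippocampal interneurons. It rested on 89 to 154 counts per sample, and its level was 5.23, 3.95 and 3.09 CPM in the controls and 2.33, 3.59 and 2.98 CPM after Snhg11-ASO. Snhg11-ASO replicate 1 was the lowest and Control-ASO replicate 1 the highest, and the other 4 samples lay between them with the groups mixed. The log2 fold change was -0.46 (SE 0.28, 95% interval -1.11 to 0.19, adjusted p = 0.706 from edgeR). Leaving out replicate 1 of Snhg11-ASO gave -0.31, and leaving out that of Control-ASO gave -0.25. Without Control-ASO replicate 3 the value was -0.63.

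Grin3a (ENSMUSG00000039579; chromosome 4, 49661611 to 49845744, minus strand), for the glycine-binding subunit GluN3A, had the lowest log2 fold change of the 6. Its level was 61.8, 32.0 and 44.5 CPM in the controls and 18.8, 33.2 and 35.1 CPM after Snhg11-ASO. Control-ASO replicate 2 lay below 2 of the Snhg11-ASO samples. The log2 fold change was -0.67 (SE 0.31, 95% interval -1.39 to 0.059, adjusted p = 0.639 from edgeR and 0.441 from DESeq2). Leaving out replicate 1 brought it to -0.43 (that of Snhg11-ASO) or -0.40 (that of Control-ASO). Without Control-ASO replicate 2 it was -0.87.

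GluN2D and GluN3A are both known from interneurons, among other cells. Of 12 interneuron markers, 10 had a fitted level below the controls (median log2 fold change -0.24, or -0.13 without Control-ASO replicate 1). For 4 of the 12 every Snhg11-ASO sample lay below every control, beside 7.70% of all genes. Their summed level was 766, 724 and 708 CPM in the controls and 574, 619 and 689 CPM after Snhg11-ASO, and these sums did not overlap. For instance, Sst, the neuropeptide of dendrite-targeting interneurons, was at 60.6, 68.3 and 58.2 CPM against 44.8, 38.3 and 55.1 CPM (adjusted p = 0.551 from edgeR). The 2 fitted above the controls were Npy (log2 fold change 0.24) and Cck (0.040). A lower majority was also seen for 8 of 10 general neuron (median -0.079), 10 of 10 choroid plexus (-0.91) and 6 of 10 astrocyte markers (-0.074). Other cell types had none: 5 of 10 granule cell, 5 of 12 pyramidal and 5 of 10 microglia markers were below the controls. The same held for 4 of 10 endothelial markers and 3 of 12 of the oligodendrocyte lineage. The part of interneuron RNA in the Grin2d and Grin3a values was not tested.

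Grin3b (ENSMUSG00000035745; chromosome 10, 79970715 to 79977190, plus strand), for GluN3B, a subunit best known from motor neurons, had 1, 10 and 4 counts in Control-ASO and 5, 5 and 5 counts in Snhg11-ASO samples. It did not pass the filter on low counts and was not tested. The 95% Poisson intervals, which cover counting error only, ran from 0.0253 to 5.57 counts for the lowest sample and from 4.80 to 18.4 for the highest, and the intervals of these samples, both controls, overlapped. Its exons share 1059 bases (32.1%) with Tmem259 on the opposite strand, which had 1194 to 1957 counts per sample. On the strand opposite to Grin3b, its exons collected 72 to 104 counts per sample.

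RefSeq promoter windows of GRCm38.p6 were matched for 4 of the 7 genes, Grin1, Grin2c, Grin2d and Grin3b. The 250 bases before the start are printed for Grin1, the member of every receptor, at chr2:25319188-25319437 (minus strand), and for Grin2c, the gene with the widest spread among samples of the 6 tested, at chr11:115267244-115267493 (minus strand). Capitals mark GC boxes, GGGCGG on either strand.
Grin1: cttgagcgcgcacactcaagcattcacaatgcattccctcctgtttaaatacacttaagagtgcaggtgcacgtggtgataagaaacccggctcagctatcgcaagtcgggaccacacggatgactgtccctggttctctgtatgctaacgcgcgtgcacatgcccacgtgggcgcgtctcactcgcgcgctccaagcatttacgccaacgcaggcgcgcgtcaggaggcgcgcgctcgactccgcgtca
Grin2c: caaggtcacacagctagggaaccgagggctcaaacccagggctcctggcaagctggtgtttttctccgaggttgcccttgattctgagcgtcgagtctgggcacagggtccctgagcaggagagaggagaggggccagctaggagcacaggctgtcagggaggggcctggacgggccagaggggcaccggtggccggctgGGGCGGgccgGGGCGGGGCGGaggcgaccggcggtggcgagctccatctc
The Grin2c window held 3 GC boxes, 50, 40 and 35 bases before the start, the last pair overlapping, and the windows of Grin1, Grin2d and Grin3b held 0. A GC box was found in 32.7% of all 32851 such windows. The cAMP response element TGACGTCA was in 0 of the 4 windows and in 1.5% of all windows. The Grin2d window, at chr7:45866682-45866931, lies inside the gene as placed above by GENCODE. The bases before that outer Grin2d start were therefore not searched.

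Grin2a and Grin2b are among the longest genes of the genome, at 427.7 and 460.3 kb, and the fold changes of all genes moved with genomic span. The 986 tested genes over 200 kb had a median log2 fold change of -0.17, whereas it was -0.0038 for the 7621 genes under 10 kb, 0.039 for the 7542 genes of 10 to 50 kb and 0.0092 for the 3796 genes of 50 to 200 kb. Both genes lay in the middle of their own class: 53.8% of the genes over 200 kb had a lower log2 fold change than Grin2a, and 44.1% a lower one than Grin2b. With a smooth correction for span, the log2 fold change was 0.073 for Grin2a and 0.017 for Grin2b, so the direction of both turned. It was -0.075 for Grin1, -0.47 for Grin2c, -0.48 for Grin2d and -0.57 for Grin3a. Within their span classes, 6.03%, 5.36% and 3.42% of genes had lower uncorrected values than Grin2c, Grin2d and Grin3a. These shares rest on all samples, and Snhg11-ASO replicate 1 was the lowest sample for each of these genes. Without that library their uncorrected log2 fold changes were -0.0069, -0.31 and -0.43.

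**Figure D3:**
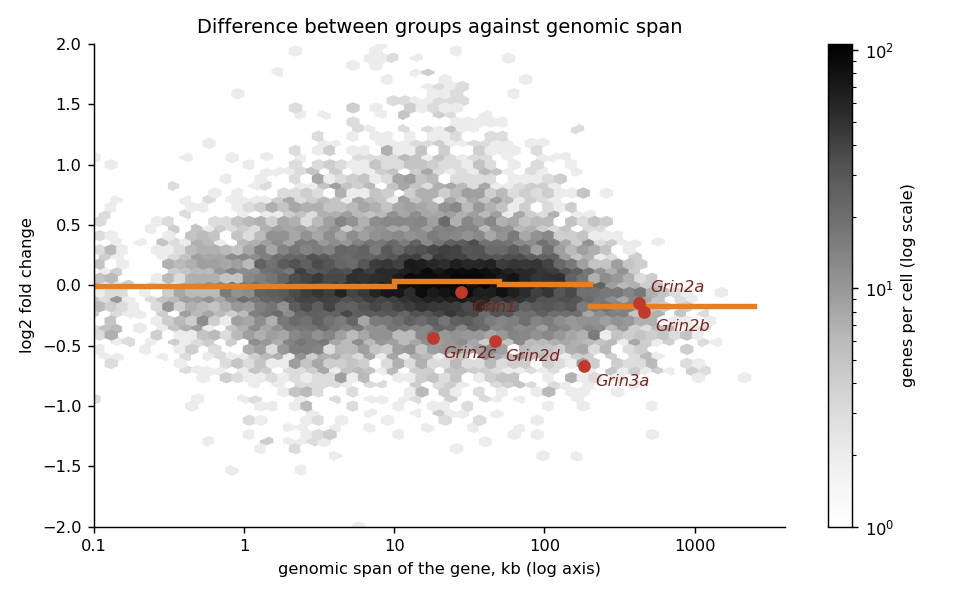
Log2 fold change of Snhg11-ASO over Control-ASO against the genomic span of each gene in kb (log axis), with all tested genes in gray and the 6 subunit genes named. Grin2a and Grin2b lie close to the median of -0.17 of genes over 200 kb.

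**Figure D4:**
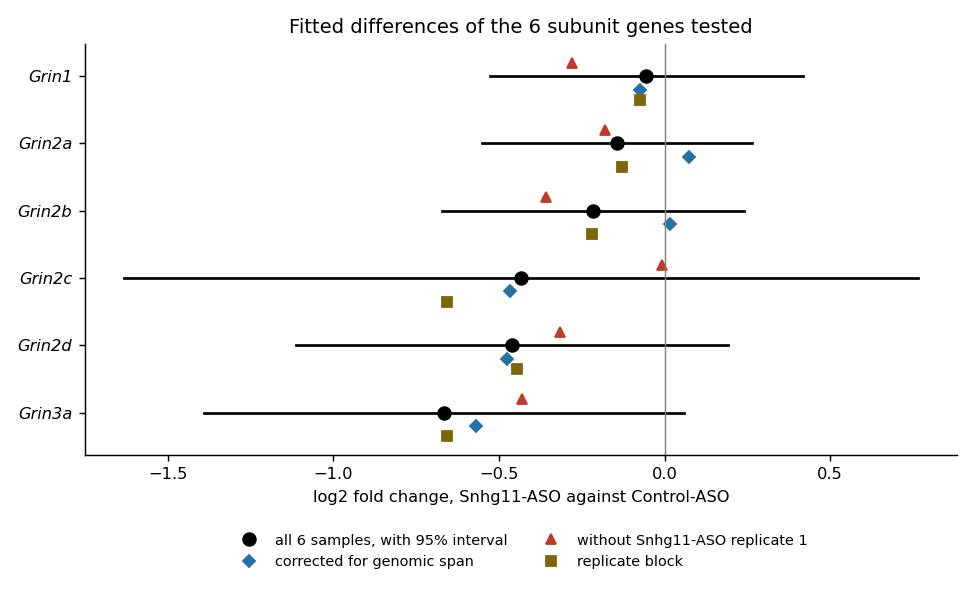
Log2 fold change of Snhg11-ASO over Control-ASO for the 6 subunit genes tested: black points with 95% intervals are the edgeR values with all samples, and colored symbols the values without Snhg11-ASO replicate 1, with the correction for span and with the replicate number as a block. Every interval crosses 0, from Grin1 at -0.055 to Grin3a at -0.67, and the span-corrected values of Grin2a and Grin2b lie on the other side of 0.

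Ratios between subunit genes cancel the scaling of the libraries, and they were taken on CPM per kb of merged exons. The Grin2a to Grin2b ratio, which rises as receptors mature, was 0.724, 0.938 and 0.844 in the controls and 0.775, 0.920 and 0.975 after Snhg11-ASO. The groups overlapped almost fully. The mean was 0.836 ± 0.107 against 0.890 ± 0.104 (SD, n = 3), a log2 difference of 0.092 (exact two-sided permutation test, p = 0.6). The smallest p that 3 against 3 samples allow is 0.1. With the longest coding transcripts the means were 0.992 and 1.06.

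Grin1 is part of every receptor and served as the common denominator for the other subunits. The Grin2b to Grin1 ratio was the steadiest in the controls, at 1.86, 1.80 and 1.74. In Snhg11-ASO samples it was 1.48, 1.82 and 1.59 (log2 difference -0.15 with exact permutation p = 0.3, or -0.080 without Snhg11-ASO replicate 1). Without Snhg11-ASO replicate 2 the difference was -0.23 (exact permutation p = 0.1, the smallest that 2 against 3 samples allow). The Grin2a to Grin1 ratio was 1.35, 1.69 and 1.47 against 1.15, 1.68 and 1.55. With all samples, neither ratio separated the groups. Their place above 1 depended on the length used. With the longest coding transcripts the mean Grin2b to Grin1 ratio was 0.82 in Control-ASO and 0.743 in Snhg11-ASO samples. The mean Grin2a to Grin1 ratio was then 0.812 in Control-ASO and 0.788 in Snhg11-ASO samples. The Grin2c to Grin1 ratio was 0.185, 0.273 and 0.251 against 0.0436, 0.284 and 0.286, where Snhg11-ASO replicate 1 was again far below the rest and the log2 difference of -0.61 became 0.29 without it. The Grin3a to Grin1 ratio was 0.164, 0.0827 and 0.153 against 0.0430, 0.109 and 0.129 (log2 difference -0.60, or -0.11 without Snhg11-ASO replicate 1). The Grin2d to Grin1 ratio averaged 0.0213 against 0.0172. Its log2 difference was -0.38, or -0.018 without Snhg11-ASO replicate 1 and -0.59 without Snhg11-ASO replicate 2. For Grin3b to Grin1 the mean ratio was lower in Snhg11-ASO samples (0.00138 against 0.00157) while the mean log2 difference was 0.27, on the few counts given above. Over all 7 ratios with all samples, the exact permutation p ran from 0.3 to 1, and the adjusted value was 1 for each.

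**Figure D5:**
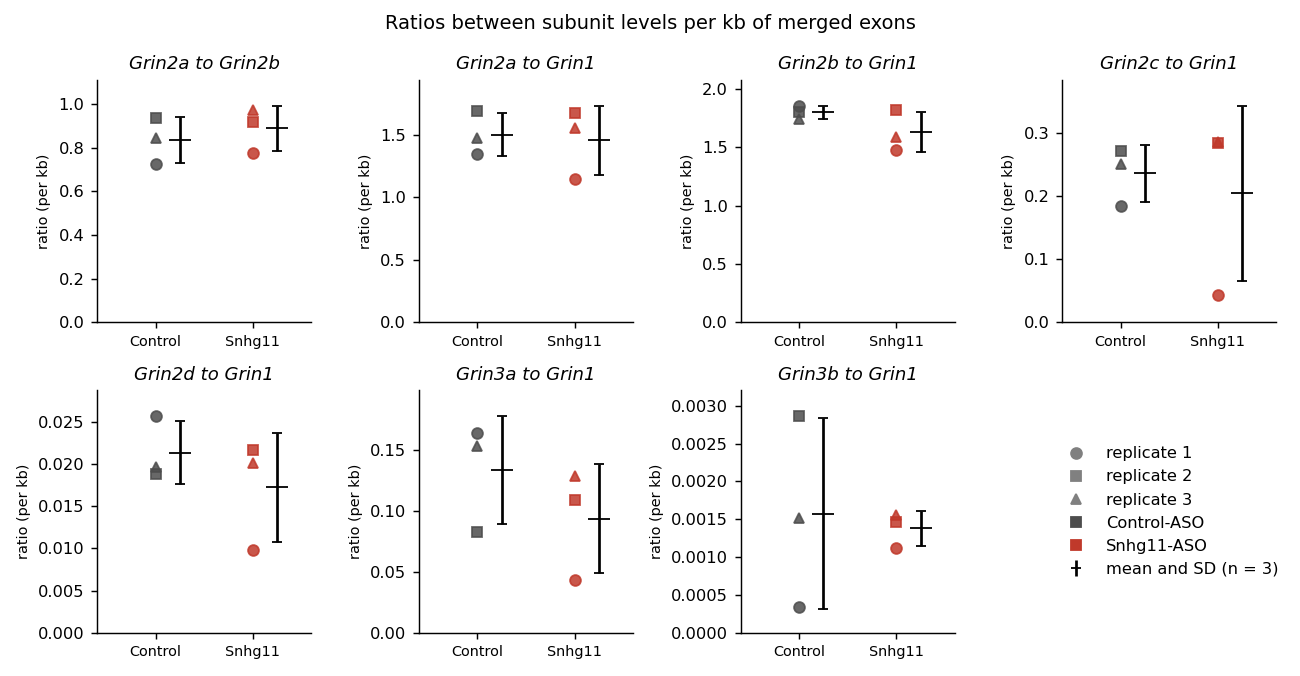
Ratios of subunit genes on CPM per kb of merged exons in every sample, with symbols for replicates and bars for the mean and SD of 3 samples. Control-ASO and Snhg11-ASO overlap in each panel, with mean Grin2a to Grin2b ratios of 0.836 and 0.890.

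Among the glutamate-binding subunits, Grin2b made up 50.7% ± 3.45 and Grin2a 42.1% ± 2.64 of the summed CPM per kb in Control-ASO samples (SD, n = 3), and 49.8% ± 4.82 and 43.9% ± 1.11 in Snhg11-ASO samples. Grin2c held 6.61% ± 1.03 against 5.79% ± 3.63, and Grin2d 0.603% ± 0.131 against 0.506% ± 0.121. Shares of each subunit overlapped between the groups. The sum over the 7 genes was 141, 154 and 109.9 CPM per kb in Control-ASO and 133, 122 and 102 CPM per kb in Snhg11-ASO samples.

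The subunit genes differed in how far they varied among the 6 samples. The highest sample exceeded the lowest by 1.601-fold for Grin1, 1.54-fold for Grin2a and 1.61-fold for Grin2b, but by 2.24-fold for Grin2d, 3.29-fold for Grin3a and 5.54-fold for Grin2c. The lowest sample was Snhg11-ASO replicate 3 for the first 3 of these genes and Snhg11-ASO replicate 1 for the others. As a description over 6 samples that share their libraries, Pearson's r of log2 CPM was 0.89 between Grin1 and Grin2b, 0.79 between Grin2a and Grin2b and 0.81 between Grin2d and Grin3a, and it was -0.57 between Grin1 and Grin2c.

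Among 9515 other protein-coding genes, the closest in pattern to Grin1 over the 6 samples were Nova2 (r = 0.99), Trim8 and Inpp5a, and those closest to Grin2b were Zc3h4 (r = 0.99), Sarm1 and Prkce. For Grin2a they were Dlgap1 (r = 0.98), a postsynaptic scaffold gene, Ppp2r5d and Slc24a3. Grin2d was closest to Bbof1 (r = 0.99), Dcc and Eri3, and Grin3a to Pnck (r = 0.99), Taz and Rnf145. Grin2c was closest to Ncaph2 (r = 0.999), Atat1 and Fn3krp. The number of genes with r of at least 0.95 was 334 for Grin2c and 8 to 50 for the other members, and Grin2c was at its lowest in the library that stood apart. The named genes had the highest r of all genes compared, over only 6 samples. How many genes would reach such values by chance was not tested, so these lists are a description and show no link between genes.

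Genes that work with the receptor were taken as 5 lists of 69 genes, of which 68 were tested. Of these 43 had a log2 fold change below 0 and 25 above, and 0 were called by edgeR. An unadjusted p under 0.05 was reached by 6 lower and 1 higher, beside 4.43% and 3.68% of all genes. The groups did not overlap for 9 lower and 4 higher, beside 7.70% and 7.73% of all genes. The genes named below are the 4 of smallest p in each list, picked by their values in these same data. DESeq2 called 1 of the 68, Apba1, beside 0.885% of all genes called lower. The lists were chosen with earlier results of these data known, so their counts beside the shares of all genes are a description only. Among 20 scaffold and trafficking partners, 14 lay below 0 and 6 above (median -0.10). Apba1, which encodes the adaptor Mint1 of the complex that carries GluN2B along microtubules, was at 163, 144 and 139 CPM in the controls and at 85.2, 83.3 and 77.7 CPM after Snhg11-ASO. The groups were well apart, with a log2 fold change of -0.86 (SE 0.09, adjusted p = 0.237 from edgeR and 3.3e-10 from DESeq2).

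The membrane-associated scaffold genes Dlg2 (PSD-93) and Dlg1 (SAP97) had log2 fold changes of -0.37 and -0.36 (adjusted p = 0.512 and 0.596 from edgeR), with every Snhg11-ASO sample below every control. Dlg2 was at 396, 389 and 378 CPM against 293, 339 and 269 CPM. Both span over 200 kb, the class of genes with a median of -0.17. The ubiquitin ligase gene Mib2 had a log2 fold change of -0.21 (adjusted p = 0.598 from edgeR).

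Of the 10 genes that supply or clear the co-agonist, 9 were tested, 4 below 0 and 5 above (median 0.045). Srr, the enzyme that makes D-serine, was at 70.7, 80.0 and 75.5 CPM in the controls and 53, 77.1 and 74.7 CPM after Snhg11-ASO. Slc7a10, a transporter of D-serine and glycine, was at 4.41 CPM in Snhg11-ASO replicate 1 and at 14.7 to 18.3 CPM in all other samples. Both were lowest in the library in which Grin2c was lowest. The serine pathway genes Psph and Shmt2 had log2 fold changes of 0.25 and 0.36 (adjusted p = 0.771 and 0.672 from edgeR).

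Among 18 kinases and phosphatases of the receptor, 10 lay below 0 and 8 above (median -0.0078), and 0 had an unadjusted p under 0.05 by edgeR. The 4 with the smallest p were Prkcb (log2 fold change -0.21), Ptpn5, the phosphatase STEP (-0.14), Cdk5 (-0.16) and Csnk2a2 (0.13). Of 14 genes of calcium signalling downstream, 11 lay below 0 and 3 above (median -0.065). Camk4, a nuclear kinase that acts on CREB, was at 47.2, 48.1 and 51.3 CPM against 44.3, 42.6 and 39.1 CPM, without overlap (log2 fold change -0.22, adjusted p = 0.618 from edgeR). Nos1 was at -0.39, Rasgrf2 at -0.23 and Crtc1 at -0.23 on the log2 fold change scale, and their groups overlapped. Prkcb, Camk4 and Rasgrf2 span over 200 kb, the class of genes with a median of -0.17.

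Of 7 transcription factors studied at subunit genes, 4 lay below 0 and 3 above (median -0.023). Rest, a repressor of neuronal genes, was at 11.6, 10.9 and 10.4 CPM in the controls and 22.6, 12.7 and 15.3 CPM after Snhg11-ASO, so that every Snhg11-ASO sample was above every control (log2 fold change 0.62, adjusted p = 0.562 from edgeR). Sp1, which binds GC boxes, was likewise above without overlap, with a log2 fold change of 0.28 (adjusted p = 0.660 from edgeR). Rest and Sp1 were both highest in Snhg11-ASO replicate 1, where Sp1 was at 52.8 CPM against 41.5 and 39.6 CPM in the other Snhg11-ASO samples. Tbr1, a factor of glutamatergic neurons, was at 23.1, 23.7 and 34.2 CPM against 17.1, 19.2 and 16.4 CPM (log2 fold change -0.62, adjusted p = 0.507 from edgeR). Mef2c was at 171, 164 and 312 CPM against 105, 140 and 144 CPM (log2 fold change -0.73, adjusted p = 0.574 from edgeR), and Control-ASO replicate 3 was far above the other controls.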

How the data were processed

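Per the labels, total RNA of 6 dorsal hippocampus samples was sequenced with stranded libraries, and the submitters' processing notes name STAR 2.5.2a and GRCm38. The deposited values are raw read pair counts per gene and strand, made by the authors. The reverse-strand counts were used, since they held 96.2% to 96.8% of the strand-specific counts. Lines naming no gene held 43.5% to 51.4% of pairs and were left out. Gene names and lengths came from GENCODE M21 (55141 of 55401 genes matched).

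Groups were compared with edgeR 4.0.16 in R 4.3.3 (quasi-likelihood test, TMM scaling, filterByExpr at a minimum count of 10, Benjamini-Hochberg threshold 0.05), with DESeq2 1.42.0 as an alternative. Ratios were tested by exact permutation. The methods give 3 injected mice per group, and the labels do not tie samples to animals. No pairing by replicate number is stated there. With group means taken off, replicates 1, 2 and 3 correlated only weakly across the groups (0.297, 0.179 and 0.103). Differently numbered samples were not compared in this way, so a pairing was not tested. Scripts were tested on simulated data. The members and lists were chosen with earlier results of these data known. Named were all members, Snhg11, the 3 genes most like each member (mean of at least 10 CPM), and the 4 genes of smallest p per partner list. Sst, Npy and Cck were named after their values were seen.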

Additional observations from a re-analysis of the deposited data

How the results depend on the processing

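None of the 6 tested subunit genes was called under any of the 16 alternatives run for each, and their number with a log2 fold change below 0 was 4 to 6. Grin2c, Grin2d and Grin3a stayed below 0 in 16 of 16, although Grin2c came as near to 0 as -0.0069. The sign turned for Grin1 without Control-ASO replicate 2 (0.020), without Snhg11-ASO replicate 2 (0.013, and 0.014 by DESeq2) and without Snhg11-ASO replicate 3 (0.078, and 0.080 by DESeq2), and ran from -0.28 to 0.078 as samples were left out. It turned for Grin2a with the span correction (0.073, or 0.092 with the replicate block added) and without Control-ASO replicate 2 (0.035, in a range from -0.28), and for Grin2b with the span correction (0.017, or 0.012 with the block). The log2 difference of the Grin2a to Grin2b ratio ran from -0.0069 to 0.19 when samples were left out, with the lowest value without Control-ASO replicate 1. That of Grin2a to Grin1 became 0.19 with the span correction, 0.033 without Control-ASO replicate 2 and 0.11 without Snhg11-ASO replicate 1 (lowest -0.16). That of Grin2b to Grin1 became 0.11 with the span correction (lowest -0.23, without Snhg11-ASO replicate 2). That of Grin2c to Grin1 became 0.29 without Snhg11-ASO replicate 1 (lowest -1.07). That of Grin3b to Grin1 became -0.61 without Control-ASO replicate 1 (highest 0.93). With the replicate block the log2 fold change was -0.66 for Grin3a and -0.66 for Grin2c, and the block changed no call. Over all genes edgeR called 0, and 0 to 2 when samples were left out (2 without Snhg11-ASO replicate 1), whereas DESeq2 called 258, and 347, 275 and 223 without Snhg11-ASO replicate 1, 2 or 3. Of the partner genes DESeq2 called 1, and 2, 2 and 1 without those replicates. The cause of these differences was not tested. Depth limits Grin3b and, less so, Grin2d.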
